A study of Mus musculus with 3 samples.

Results

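The nuclei described here carry transcripts of inhibitory transmission and none of the vesicular glutamate transporters. They come from single-nucleus RNA sequencing of the brains of C57BL/6 mice, whose spinal-projecting cells carried a retrograde label taken up in the lumbar cord. All 3 libraries, labelled as biological replicates 1, 2 and 3, belong to 1 group of uninjured mice. The labels name no allele, agent or age, and the sources used here give neither the tracer nor the number of animals per library. Labelled tissue was dissected from brain slices under fluorescence and frozen, and its nuclei were sorted by flow cytometry, so each nucleus passed a sort but was not shown singly to project to the cord. Each value is a count of unique molecular identifiers (UMIs), which mark single captured RNA molecules.

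A nucleus was counted as inhibitory when Gad1, Gad2, Slc32a1 and Slc6a5 together had at least 3 UMIs and at least 150 CPM (counts per 1000000 UMIs of the nucleus), when Slc17a6 and Slc17a7 together had 0 UMIs, and when Hspa8 was below 600 CPM. The rule was applied to 9027 barcodes, those in which 1000 genes or more were detected and mitochondrial UMIs made up 5% or less. It found 50 inhibitory nuclei, 0.554% of these barcodes. They were set against 1359 Slc17a6 nuclei, which had at least 2 UMIs of Slc17a6 and 0 UMIs of the 4 inhibitory genes. The label rests on these 4 genes, since no other measure of transmitter was made.

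Inhibitory neurons make GABA from glutamate with the glutamate decarboxylases encoded by Gad1 and Gad2. Slc32a1 encodes the vesicular transporter that loads both GABA and glycine, and Slc6a5 encodes the plasma membrane transporter that gives glycinergic terminals their glycine. Slc17a6 and Slc17a7 encode vesicular glutamate transporters, of which Slc17a6 prevails in brainstem and hypothalamus and Slc17a7 in cortex. In the embryonic hindbrain and spinal cord a common progenitor domain yields excitatory V2a neurons, which express Lhx3, and inhibitory V2b neurons, marked by Gata3, Gata2 and Tal1. Reticulospinal neurons of the medulla include glutamatergic, GABAergic and glycinergic cells.

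The libraries held 2710, 11094 and 3713 barcodes with 27435221, 74287112 and 60490064 UMIs. Replicate 1 gave 19 inhibitory nuclei of 2679 barcodes within the limits, or 0.709% (95% exact binomial interval 0.428 to 1.11%). Replicate 2 gave 7 of 2769, or 0.253% (0.102 to 0.520%), and replicate 3 gave 24 of 3579, or 0.671% (0.430 to 0.996%). The mean share was 0.544% ± 0.253 (SD, n = 3 libraries), and the interval of replicate 2 overlapped those of the other libraries. Replicate 2 also had the most Slc17a7 transcript outside cortical nuclei: at least 1 UMI was found in 48.6% of its Slc17a6 nuclei, against 7.90% in replicate 1 and 19.5% in replicate 3, and its part in the low share was not tested. Intervals cover counting error only. The inhibitory nuclei held between 2596 and 36921 UMIs, with medians of 11224, 13896 and 13436.5 by replicate, against 10129, 21363 and 13019.5 in Slc17a6 nuclei. Pairs of libraries shared 10, 2 and 8 cell barcodes, counted over all barcodes and not only those within the limits. Scrublet marked 0 of the 50 inhibitory nuclei as doublets and 42 of the 1359 Slc17a6 nuclei.

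The values of the 4 genes that chose the nuclei are a description and were not tested. Gad2 (chromosome 2, 22621015 to 22693877, build mm10) was the most frequent, with 162 UMIs in 46 of the 50 inhibitory nuclei and 319, 247 and 213 CPM in replicates 1, 2 and 3. Slc6a5 (chromosome 7, 49906984 to 49963864) had 115 UMIs in 27 nuclei and 258, 66.6 and 166 CPM. Gad1 (chromosome 2, 70561303 to 70602014) had 36 UMIs in 18 nuclei and 45.6, 57.1 and 61.2 CPM. Slc32a1 (chromosome 2, 158607260 to 158615747) had 27 UMIs in 20 nuclei and 45.6, 28.5 and 43.7 CPM. Slc6a5 was lowest in replicate 2, where 2 of 7 nuclei carried it, while Gad1 and Gad2 differed less between libraries.

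These transcripts are shallowly sampled. The sum over the 4 genes ranged from 3 to 16 UMIs per nucleus with a median of 6, or 205 to 1541 CPM with a median of 623. A single gene of the 4 gave all the UMIs in 13 nuclei, a pair of them in 16, and 3 or 4 of them in 21. Free RNA in droplets can leave a UMI in any nucleus, and Slc17a7 nuclei (at least 2 UMIs of Slc17a7, 0 of Slc17a6), which are cortical by that marker, are given here for reference. Gad2 was found in 92.0% of inhibitory nuclei and in 2.64% of the 2463 Slc17a7 nuclei, although their median depth was 23238 UMIs against 11964.5 in inhibitory nuclei. The share for Slc6a5 was 54.0% in inhibitory nuclei and 0.528% in Slc17a7 nuclei. After thinning every nucleus to 3000 UMIs, which left out 1 inhibitory and 16 Slc17a7 nuclei, Gad2 remained in 53.1% and 0.409%, and Slc6a5 in 46.9% and 0.0817%. The high shares in inhibitory nuclei follow from the rule, which used these genes. No limit on the 4 genes was set for Slc17a7 nuclei, of which 65 held 110 UMIs of Gad2. Their shares can hold free RNA, doublets and the nuclei's own transcript, and which of these gave the UMIs was not tested.

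At the thresholds, 5 inhibitory nuclei had exactly 3 UMIs of the 4 genes, while 18 barcodes with 2 UMIs, at a median of 267 CPM, met every other condition and lay just outside. The lowest inhibitory nucleus had 205 CPM, and 1 barcode with enough UMIs fell below 150 CPM, at 140.1 CPM. Of 77 barcodes with enough inhibitory transcript, 25 were left out for a UMI of Slc17a6 or Slc17a7, of which 15 had exactly 1 such UMI, and 2 were left out for Hspa8.

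GABA and glycine genes overlapped in the same nuclei. Of the 50 nuclei, 24 held UMIs of Slc6a5 together with Gad1 or Gad2, 23 held Gad1 or Gad2 without Slc6a5, and 3 held Slc6a5 without either. Slc32a1, which both transmitters need for loading, was found in 11 of the 27 nuclei with Slc6a5 and in 9 of the 23 without. At 3 to 16 UMIs per nucleus, a gene at 0 UMIs in a nucleus was not detected at this depth, which does not show that it is absent.

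**Figure D1:**
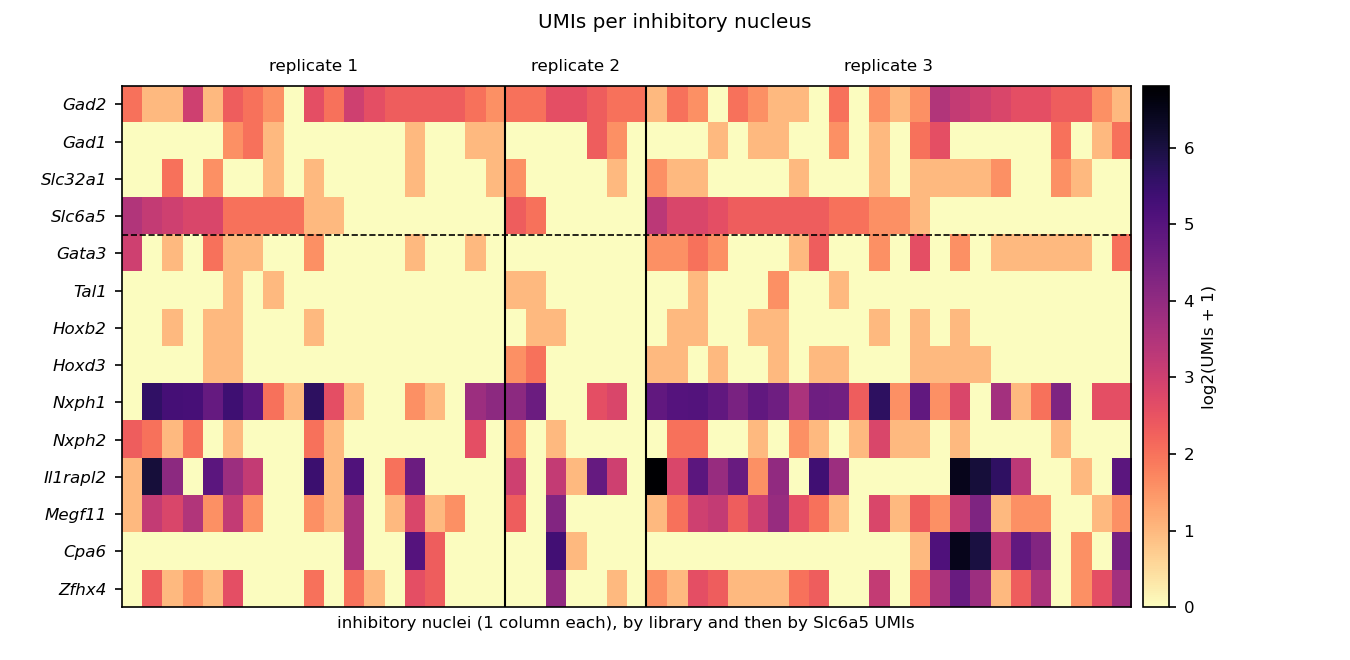
UMIs per nucleus (colour, log2 of UMIs + 1) of 14 genes in the 50 inhibitory nuclei, 1 column each, ordered within replicates 1, 2 and 3 by Slc6a5 UMIs. The dashed line separates the 4 genes that chose the nuclei from genes the rule did not use; the 9 nuclei with 10 or more UMIs of Cpa6 have 0 UMIs of Slc6a5, and Gata3 is at 0 UMIs in the 7 nuclei of replicate 2.

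When all barcodes within the limits were clustered on genes other than the 7 of the rule, 46 of the 50 inhibitory nuclei fell into 1 of 24 clusters. That cluster held 17, 5 and 24 of them by replicate, beside 225 Slc17a6 nuclei among its 731 nuclei. The inhibitory nuclei thus did not form a cluster of their own at the resolution used. The leading genes of the cluster were Cartpt, Il1rapl2, Meis1, Egfem1 and Cpa6. The other 4 nuclei lay in 4 different clusters and had 3 to 5 UMIs of Gad2 and 0 of the other inhibitory genes. Their membership rests on Gad2 alone.

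Transcription factors of the V2b and V2a lineages differed between inhibitory and Slc17a6 nuclei. Gata3 (chromosome 2, 9857078 to 9887953), the V2b factor, stood at 86.1, 0 and 90.3 CPM in inhibitory nuclei of replicates 1, 2 and 3, against 0, 0.169 and 0 CPM in Slc17a6 nuclei. It was high in replicates 1 and 3 and at 0 UMIs in the 7 nuclei of replicate 2, where a count of 0 allows up to 28.5 CPM. In all, 48 UMIs in 23 of 50 inhibitory nuclei stood against 2 UMIs in 1 of 1359 Slc17a6 nuclei, a ratio of CPM of 889 with a counting interval of 233 to 7549. Gata3 did not pass the filter on low counts, being at 0 UMIs in the inhibitory sum of replicate 2 and at or near 0 in the Slc17a6 sums. In a fit without the filter on low counts its adjusted p was 5.03e-15 (edgeR quasi-likelihood test, Benjamini-Hochberg), with the direction in 2 of 3 libraries. That fit called 0.378% of 25689 genes higher and 0.619% lower, 0.997% in all.

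The level of Gata3 outside the inhibitory nuclei was low but not 0. At least 1 UMI of Gata3 was found in 46.0% of inhibitory nuclei and in 0.365% of Slc17a7 nuclei, and after thinning to 3000 UMIs in 20.4% and 0.0409%. At least 2 UMIs were found in 24 of all 9027 barcodes, of which 12 were inhibitory nuclei. Among barcodes that were not inhibitory nuclei, 25 of the 446 with at least 1 UMI of the 4 inhibitory genes carried Gata3 (5.61%), as did 28 of the 8531 with none (0.328%). All 23 inhibitory nuclei with Gata3 lay in the cluster that held most of them. Gata3 occurred with and without the glycine transporter: 14 nuclei had both Gata3 and Slc6a5, 9 had Gata3 alone, 13 had Slc6a5 alone and 14 had neither.

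Tal1, a partner of Gata3 in V2b neurons, was at 10.1, 19.0 and 11.7 CPM in inhibitory nuclei and at 0 UMIs in Slc17a6 nuclei of each library. Against the 3 counts over the group that a count of 0 allows, it was at least 108.5-fold higher, from 8 UMIs in 7 inhibitory nuclei, with an adjusted p of 1.24e-04 in the edgeR fit without the filter. Replicate 2 carried Tal1 in 2 of its 7 nuclei although it had no Gata3. Gata2, which acts upstream of Gata3 in V2b neurons, had 2 UMIs in 1 inhibitory nucleus. Any of Gata3, Tal1 and Gata2 was seen in 28 of the 50 nuclei, but Tal1 and Gata3 were seen together in only 2. Lhx5, expressed in several inhibitory and excitatory classes, was at 0, 9.51 and 20.4 CPM in inhibitory nuclei and at 2.60, 1.61 and 1.16 CPM in Slc17a6 nuclei, and the groups overlapped (adjusted p = 0.411 without the filter, edgeR).

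LIM homeobox factors of the excitatory lineage showed the opposite pattern. Lhx3 (chromosome 2, 26200212 to 26208249), a factor of V2a and motor neurons, was at 0 UMIs in inhibitory nuclei of every library, against 17.1, 16.3 and 17.5 CPM in Slc17a6 nuclei, at least 3.65-fold lower (adjusted p = 0.00624, edgeR). Its relative Lhx4 had 1 UMI in 1 inhibitory nucleus of replicate 3, at 0, 0 and 2.91 CPM, against 22.8, 20.7 and 27.9 CPM in Slc17a6 nuclei, which was 15.3 times higher (adjusted p = 0.00223, edgeR), and counting error allows 2.73 to 604 times. The groups did not overlap for either gene, and all 3 libraries had the same direction.

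They come from a list of 26 excitatory identity factors, of which 8 had a UMI in inhibitory nuclei and 7 were tested, with 3 called lower and 0 higher. Members such as Lhx3 passed the filter only through the Slc17a6 nuclei, where they are high, so this count says nothing of the list beyond the genes described. Within the cluster that held most inhibitory nuclei the Slc17a6 nuclei averaged 46.1 CPM of Lhx4 and 23.9 CPM of Lhx3, and both calls stood there (adjusted p = 2.86e-04 and 0.00688, edgeR). The calls of Lhx3 and Lhx4 were lost without replicate 3 (adjusted p = 0.663 and 0.513) and without replicate 2 (0.120 and 0.0731, edgeR). Without replicate 1 Lhx4 was called (adjusted p = 0.0396) while Lhx3 was not (0.072, edgeR). Of 30 genes listed as inhibitory identity factors, 9 had a UMI in inhibitory nuclei and 1 passed the filter. It was not called (log2 fold change -1.34, 0 higher and 1 lower at an unadjusted p under 0.05). The higher values of Gata3 and Tal1 thus do not extend to the member that was tested. Within the cluster 0 genes of the list were called higher and 1 lower, and without replicate 2, 1 was called higher and 0 lower.

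**Figure D2:**
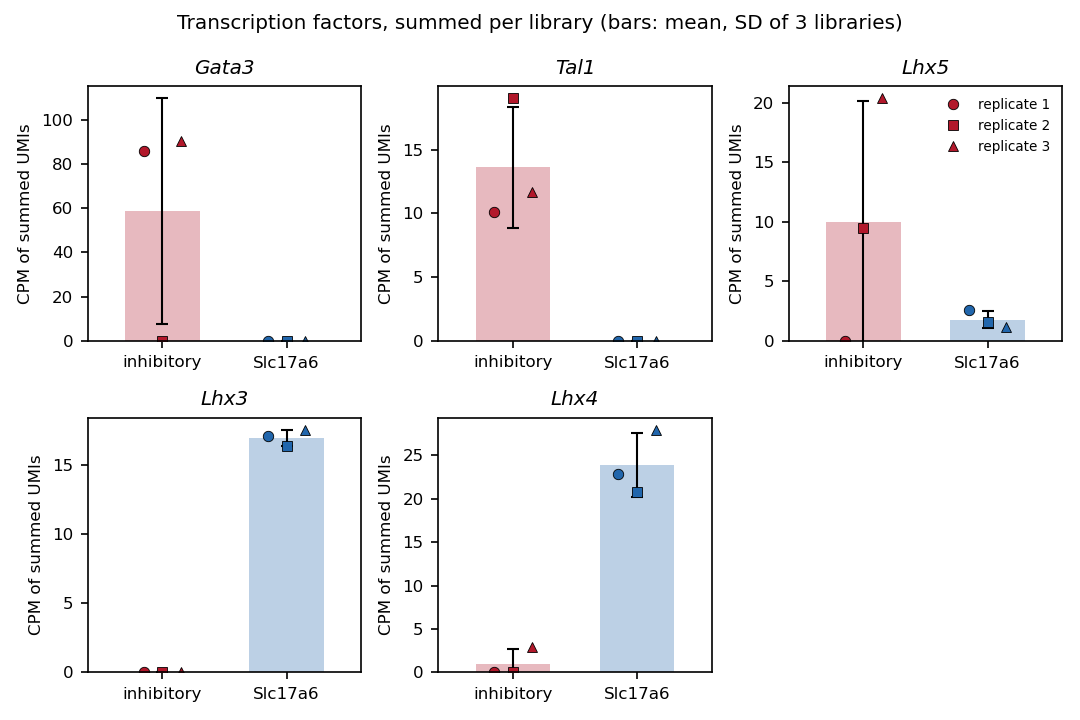
CPM of summed UMIs by library for 5 transcription factors in inhibitory nuclei (left) and Slc17a6 nuclei (right), with bars at the mean and error bars of 1 SD over 3 libraries; each panel has its own axis from 0. Gata3 and Tal1 stand in inhibitory nuclei only (apart from 0.169 CPM of Gata3 in replicate 2), Lhx5 overlaps between the groups, and Lhx3 and Lhx4 stand in Slc17a6 nuclei except 2.91 CPM of Lhx4 in replicate 3.

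For all genes, UMIs were summed per library over the inhibitory nuclei (197568, 105124 and 343376 UMIs) and over the Slc17a6 nuclei (3460521, 11826293 and 8637100 UMIs), and the sums were compared within libraries with the quasi-likelihood test of edgeR. Calls required an adjusted p (Benjamini-Hochberg) below 0.05 together with a log2 fold change of 1 or more in either direction. Of 11941 genes tested, 97 were higher in inhibitory nuclei (0.812%) and 127 lower (1.06%), so 1.88% were called. Against the Slc17a6 nuclei of the cluster that held most inhibitory nuclei, a comparison added after seeing the data, 1.15% of 6981 genes were called higher and 1.2% lower, 2.35% in all. The p-values measure no more than counting error and the spread between these libraries, which may in part be technical. With 2 residual degrees of freedom per gene, edgeR estimated the spread of each gene partly from all genes. Replicate 3 holds 24 of the 50 nuclei, and without it 14 genes were higher and 12 lower. When the library was not a term of the fit, 56 were higher and 68 lower. Of 51 genes that the naming rule took from this fit, 8 were called whichever library was left out: Cpa6, Il1rapl2, Megf11, Nxph2, Tex22, Tll1, Ndst4 and Cacna2d1.

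Cpa6 (chromosome 1, 10295791 to 10720053), which encodes a secreted carboxypeptidase that trims peptides, had the largest log2 fold change of the 14 rises that the naming rule took from this fit, in which Gata3 and Tal1 were not tested. It stood at 233, 380.5 and 760 CPM in inhibitory nuclei of replicates 1, 2 and 3, against 7.22, 12.9 and 8.45 CPM in Slc17a6 nuclei. The lowest inhibitory value was far above the highest Slc17a6 value, and the log2 fold change was 5.56 (SE 0.25, adjusted p = 6.44e-31, edgeR). The transcript was not spread evenly: 14 of 50 nuclei carried it, 9 of them with 10 or more UMIs, and 1 nucleus held 24.8% of the 347 UMIs. Slc17a6 nuclei of the same cluster averaged 14.5 CPM, and the log2 fold change against them was 5.10 (adjusted p = 1.85e-10, edgeR).

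Il1rapl2, a synaptic adhesion protein of the interleukin 1 receptor accessory family, was at 1200, 466 and 1439 CPM in inhibitory nuclei and at 186, 121 and 88.6 CPM in Slc17a6 nuclei. The groups did not overlap, replicate 2 being the lowest of the inhibitory sums, and the log2 fold change was 2.93 (SE 0.23, adjusted p = 2.16e-17, edgeR). Megf11, a transmembrane protein with EGF-like domains that spaces retinal interneurons in mice, was at 309, 209 and 294 CPM in inhibitory nuclei and at 45.4, 43.6 and 41.2 CPM in Slc17a6 nuclei. It was found in 37 of 50 inhibitory nuclei, and its values were separate by group in every library (log2 fold change 2.64, SE 0.20, adjusted p = 2.16e-17, edgeR). Tex22 was at 116, 276 and 23.3 CPM in inhibitory nuclei and 17.6, 16.3 and 8.34 CPM in Slc17a6 nuclei (log2 fold change 2.92, SE 0.33, adjusted p = 1.44e-10, edgeR). Only 8 nuclei carried Tex22 and 1 of them held 43.3% of its UMIs, and among nuclei with at least 6 UMIs of the inhibitory genes its adjusted p was 0.866.

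Nxph2, Nxph1 and Nrxn3 were each higher in inhibitory nuclei. Nxph2 stood at 106, 28.5 and 61.2 CPM in inhibitory nuclei, against 7.51, 3.13 and 5.44 CPM in Slc17a6 nuclei, with UMIs in 21 of 50 inhibitory nuclei. Both groups were lowest in replicate 2 and did not overlap (log2 fold change 3.55, SE 0.45, adjusted p = 6.88e-09, edgeR). Nxph1, like Nxph2 a secreted ligand of alpha-neurexins, was at 1564, 485 and 1101 CPM in inhibitory nuclei and at 398, 253 and 357 CPM in Slc17a6 nuclei (log2 fold change 1.53, SE 0.19, adjusted p = 5.90e-09, edgeR). Their relative Nxph4 had 2 UMIs in inhibitory nuclei, at 0, 0 and 5.83 CPM against 16.2, 13.9 and 16.0 CPM in Slc17a6 nuclei (adjusted p = 0.196, edgeR). Nrxn3 (chromosome 12, 88722701 to 90334935), a presynaptic adhesion protein, was at 10680, 8400.0 and 12730 CPM in inhibitory nuclei and at 2977, 2821 and 2876 CPM in Slc17a6 nuclei. All 50 nuclei carried it, 1 nucleus held 16.7% of its UMIs, and the groups were far apart in each library (log2 fold change 1.82, SE 0.20, adjusted p = 8.89e-11, edgeR). The calls of Nrxn3 and Nxph1 were lost without replicate 3 (adjusted p = 0.067 and 0.103, edgeR).

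Of the 18 listed inhibitory synapse organisers, all of which were tested, Nrxn3 was higher and Mdga1 lower, and the list's median log2 fold change was -0.19. Mdga1, which binds neuroligin 2 and restrains inhibitory synapses, had 3 UMIs in inhibitory nuclei, at 0, 9.51 and 5.83 CPM against 29.8, 21.9 and 23.9 CPM in Slc17a6 nuclei. The Slc17a6 level was 5.11 times higher (counting error allows 1.74 to 24.9 times), with an adjusted p of 0.0277 (edgeR), a call lost without any 1 of the libraries (adjusted p between 0.166 and 0.672). Mdga1 did not pass the filter within the cluster that held most inhibitory nuclei. Gphn, the scaffold of inhibitory synapses, was at 719, 485 and 775 CPM in inhibitory nuclei and 822, 676 and 786 CPM in Slc17a6 nuclei (adjusted p = 0.813, edgeR).

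The other 9 genes of the largest rises are known to act in varied places, and most come from few UMIs. Irx2, an Iroquois homeobox factor, was at 25.3, 28.5 and 23.3 CPM in inhibitory nuclei and 0.867, 7.02 and 4.17 CPM in Slc17a6 nuclei (log2 fold change 2.77, SE 0.65, adjusted p = 0.00408, edgeR), with 16 UMIs spread over 14 nuclei. Plpp4, a phospholipid phosphatase, was at 30.4, 19.0 and 69.9 CPM in inhibitory nuclei and 5.20, 7.44 and 4.98 CPM in Slc17a6 nuclei (log2 fold change 2.95, SE 0.50, adjusted p = 2.10e-05, edgeR). Its 32 UMIs came from 16 nuclei, so it was spread more widely than Cpa6. Zbtb7c, a zinc finger protein, was at 20.3, 28.5 and 49.5 CPM in inhibitory nuclei and 2.89, 5.41 and 5.44 CPM in Slc17a6 nuclei (log2 fold change 2.89, SE 0.56, adjusted p = 2.19e-04, edgeR).

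The rises of Col4a5, a chain of type IV collagen, and of Vwa5b1 rested on single nuclei: 1 nucleus held 85.2% of the 27 UMIs of Col4a5 and another 66.7% of the 24 UMIs of Vwa5b1. With each gene's highest nucleus left out, a comparison added after seeing the data, Vwa5b1 had an adjusted p of 0.165 and Col4a5 did not pass the filter. In the same comparison Penk and Plekhg1 were not called (adjusted p = 0.141 and 0.0917, edgeR) and Myo3a did not pass the filter. Sox1ot, a noncoding RNA that overlaps Sox1, was at 40.5, 28.5 and 11.7 CPM in inhibitory nuclei and 5.78, 4.90 and 0.463 CPM in Slc17a6 nuclei, and since counting by strand is not stated, reads of the overlapping genes may be mixed. Myo3a, an unconventional myosin with a kinase domain, averaged 21.9 CPM in inhibitory nuclei and 2.93 CPM in Slc17a6 nuclei, and Plekhg1, a guanine nucleotide exchange factor, 31.9 and 4.89 CPM. Leaving out replicate 3 ended the calls of these 9 genes, Penk included, with adjusted p from 0.067 for Col4a5 to 0.709 for Myo3a (edgeR). Leaving out replicate 1 ended those of Col4a5, Sox1ot, Irx2 and Penk (0.216 to 0.905), and leaving out replicate 2 those of Sox1ot, Irx2, Penk, Myo3a and Plekhg1 (0.120 to 0.447, edgeR).

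Tll1 (chromosome 8, 64013098 to 64206008), a tolloid-like metalloprotease that processes extracellular matrix, was at 0 UMIs in inhibitory nuclei of all 3 libraries, against 88.4, 52.9 and 63.9 CPM in Slc17a6 nuclei, at least 14.7-fold lower (adjusted p = 4.98e-10, edgeR). Slc17a6 nuclei of the cluster that held most inhibitory nuclei averaged 6.09 CPM of Tll1, which did not pass the filter there. Ndst4, a heparan sulphate sulfotransferase, was at 25.3, 66.6 and 20.4 CPM in inhibitory nuclei and 278, 234 and 290 CPM in Slc17a6 nuclei. Its values were low in every inhibitory sum (log2 fold change -3.18, SE 0.30, adjusted p = 1.02e-13, edgeR), and the fall was also present within the cluster (-2.54, adjusted p = 5.46e-05, edgeR).

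The other large falls were of genes with 1 or 2 UMIs in inhibitory nuclei. Foxp2, a forkhead factor, had 2 UMIs, at 5.06, 9.51 and 0 CPM against 49.7, 42.2 and 45.7 CPM in Slc17a6 nuclei, which was 14.4 times higher (counting error allows 3.98 to 119 times), with an adjusted p of 1.13e-05 (edgeR). In Slc17a6 nuclei of the same cluster Foxp2 averaged 2.13 CPM, close to the inhibitory level. Glra2, the alpha 2 subunit of the glycine receptor, had 2 UMIs, at 0, 9.51 and 2.91 CPM against 39.9, 35.3 and 40.3 CPM in Slc17a6 nuclei (12.2 times higher, interval 3.37 to 101, adjusted p = 7.71e-05, edgeR). Col16a1, a fibril-associated collagen, Rreb1, a zinc finger factor, and Adamts18, a secreted metalloprotease, had 1 UMI each in inhibitory nuclei, against means of 25.7, 25.9 and 20.4 CPM in Slc17a6 nuclei. Foxp2, Glra2, Col16a1, Rreb1 and Adamts18 did not pass the filter within the cluster, so their falls were not tested there. Leaving out replicate 3 ended the calls of these 5 genes, with adjusted p from 0.262 for Foxp2 to 0.762 for Adamts18, and those of Rreb1 and Adamts18 were also lost without replicate 1 or replicate 2 (0.0675 to 0.127, edgeR).

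**Figure D3:**
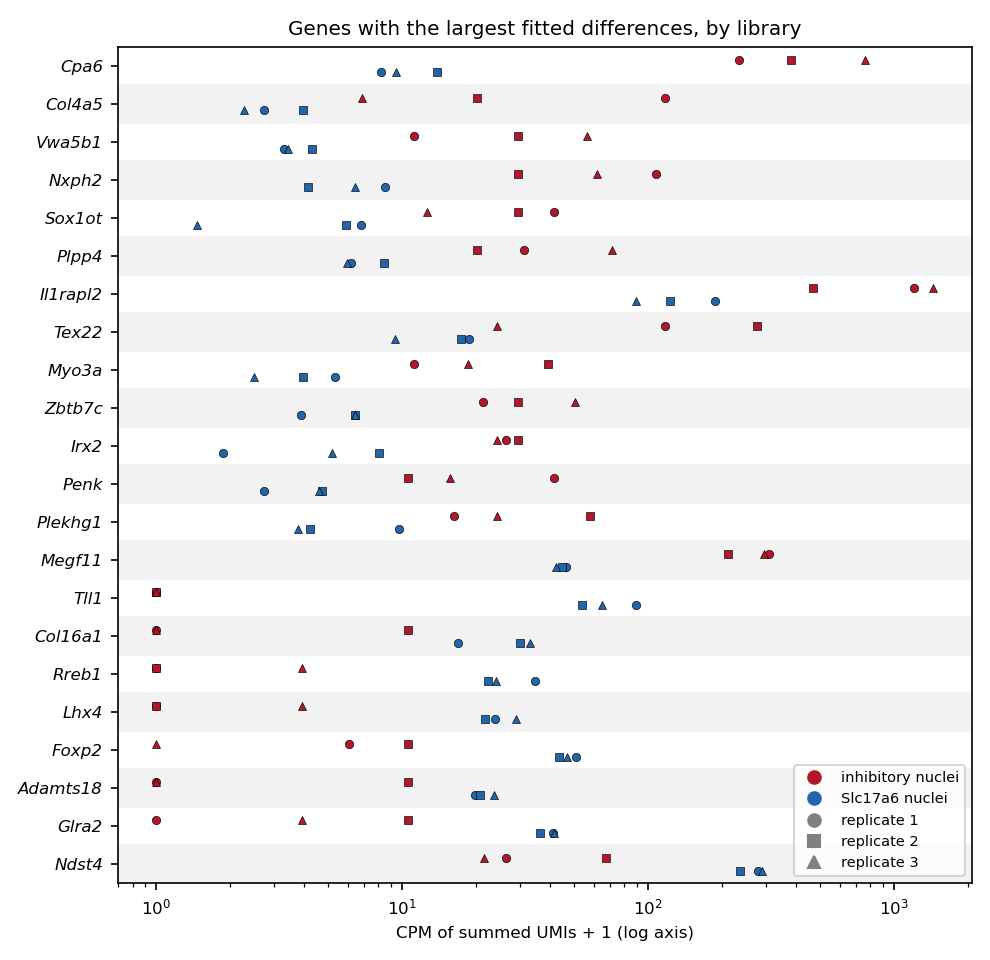
CPM of summed UMIs plus 1 on a log axis for the 14 genes with the largest rise and the 8 with the largest fall under the naming rule; red symbols are inhibitory nuclei, blue symbols Slc17a6 nuclei, and the symbol shape gives the library. The naming rule required the same direction in each library, so the groups are apart there for all 22 genes by selection. Tll1 is at 0 in all inhibitory sums.

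Of genes that take up and break down GABA and glycine, outside the rule, none of the 10 tested was called (1 higher and 0 lower at an unadjusted p under 0.05), with a median log2 fold change of 0.19, against -0.032 over all genes. Abat, which breaks GABA down, was at 127, 285 and 90.3 CPM in inhibitory nuclei and 112, 101 and 92.5 CPM in Slc17a6 nuclei, and the groups overlapped. None of 5 chloride transporters was called (0 higher and 1 lower unadjusted), and Slc12a5, the potassium chloride exporter of mature neurons, was at 65.8, 114 and 87.4 CPM in inhibitory nuclei and 101, 103 and 92.6 CPM in Slc17a6 nuclei (adjusted p = 0.918, edgeR).

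Receptors for the inhibitory transmitters gave 1 call. None of 11 GABA-A receptor subunits was called (1 higher and 3 lower unadjusted). Of 6 GABA-B and glycine receptor genes 1 was lower, Glra2. It passed the filter on low counts only through the Slc17a6 nuclei, where it is high, and was not tested within the cluster. Glra1, the adult alpha 1 subunit, was at 172, 85.6 and 204 CPM in inhibitory nuclei and 200, 178 and 173 CPM in Slc17a6 nuclei, with overlap between the groups (adjusted p = 0.914, edgeR). A p above the threshold does not show that the levels were equal.

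Glutamate receptors gave a call each in the metabotropic and ionotropic families, both lower. Grm5, a group I metabotropic receptor, was at 440, 533 and 297 CPM in inhibitory nuclei and 1033, 1070 and 1136 CPM in Slc17a6 nuclei (log2 fold change -1.45, SE 0.19, adjusted p = 5.62e-08, edgeR). Grik1, a kainate receptor subunit, was at 177, 190.3 and 216 CPM in inhibitory nuclei and 513, 359 and 474 CPM in Slc17a6 nuclei (-1.24, SE 0.20, adjusted p = 1.06e-05, edgeR). Neither gene's groups overlapped. They were the only calls among 6 metabotropic and 16 ionotropic receptor genes. Grm7 and Grm8, presynaptic group III receptors, passed the p threshold with rises under 1 (0.75 and 0.82), and Grik4 and Grin3a passed it with falls under 1. Neither call stood without replicate 3 (adjusted p = 0.0862 and 0.0874, edgeR).

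Among channels, Cacna2d1, the alpha 2 delta 1 subunit that brings calcium channels to terminals and binds gabapentinoids, had the largest fall. It was at 197, 143 and 157 CPM in inhibitory nuclei and 1135, 908 and 976 CPM in Slc17a6 nuclei. Every inhibitory sum lay far under every Slc17a6 sum (log2 fold change -2.63, SE 0.21, adjusted p = 1.82e-16, edgeR), and within the cluster the value was -2.41 (adjusted p = 7.99e-08, edgeR). Kcnh7, an ether-a-go-go related potassium channel, was at 116, 409 and 143 CPM in inhibitory nuclei and 695, 848 and 788 CPM in Slc17a6 nuclei (-2.05, SE 0.22, adjusted p = 2.01e-11, edgeR). Pex5l, which regulates the trafficking of HCN channels, was at 172, 542 and 160 CPM in inhibitory nuclei and 459, 689 and 438 CPM in Slc17a6 nuclei (-1.10, SE 0.20, adjusted p = 1.10e-04, edgeR). Replicate 2 was the highest inhibitory sum for both genes, and for Pex5l it overlapped the Slc17a6 sums. Within the cluster Pex5l was not called (adjusted p = 0.189, edgeR).

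These were 2 of 17 calcium and HCN channel genes and 1 of 29 potassium channel genes. No gene was called higher in either list when all Slc17a6 nuclei were compared. At an unadjusted p under 0.05, 4 potassium channel genes were higher and 10 lower. Of these, 4 passed the adjusted threshold with a change under 1, Kcnd3 and Kcnq5 with rises (0.96 and 0.65) and Kcnip4 and Kcnq3 with falls (-0.75 and -0.70). None of 10 voltage-gated sodium channel genes was called (1 higher and 1 lower unadjusted). None of 12 neurofilament and large projection neuron genes was called (0 higher and 1 lower unadjusted), with a median log2 fold change of -0.19. Kcnh7 and Pex5l were not called without replicate 3 (adjusted p = 0.0744 and 0.499, edgeR). Without replicate 2, 1 potassium channel gene was called higher and 1 lower. Against Slc17a6 nuclei of the same cluster, 3 potassium channel genes were called higher and 1 lower. In that comparison 0 calcium and HCN channel genes were called higher and 1 lower.

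In the list of neuropeptides, 3 of 10 tested genes were higher. One of the 3 was Nxph1, a neurexin ligand and not a peptide precursor, and the others, Penk and Pnoc, were opioid family precursors. Penk and Pnoc passed the filter on low counts only through the inhibitory nuclei, where they are high. The count of 3 therefore says nothing of the list beyond the genes described. Penk, the enkephalin precursor, was at 40.5, 9.51 and 14.6 CPM in inhibitory nuclei and 1.73, 3.72 and 3.59 CPM in Slc17a6 nuclei, from 14 UMIs in 9 nuclei (log2 fold change 2.77, SE 0.72, adjusted p = 0.0135, edgeR). Pnoc, the nociceptin precursor, was at 10.1, 28.5 and 8.74 CPM in inhibitory nuclei and 0.867, 0.592 and 1.04 CPM in Slc17a6 nuclei, from 8 UMIs in 7 nuclei (3.91, SE 1.10, adjusted p = 0.0313, edgeR). The groups did not overlap for either gene, but both calls were lost without any 1 of the libraries, with adjusted p between 0.136 and 0.890 (edgeR). Without its highest nucleus Pnoc was not called either (adjusted p = 0.226, edgeR).

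Receptors for peptides and amines changed in a few members. Oprm1, the mu opioid receptor, was at 45.6, 57.1 and 81.5 CPM in inhibitory nuclei and 26.3, 30.8 and 33.5 CPM in Slc17a6 nuclei (log2 fold change 1.06, SE 0.30, adjusted p = 0.0313, edgeR). Hcrtr2, an orexin receptor, was at 10.1, 38.1 and 8.74 CPM in inhibitory nuclei and 54.6, 53.9 and 51.4 CPM in Slc17a6 nuclei (-1.90, SE 0.43, adjusted p = 0.00243, edgeR). They were the calls among 10 neuropeptide receptors, and the groups did not overlap for either. Against Slc17a6 nuclei of the same cluster Oprm1 was called (adjusted p = 0.0248) and Hcrtr2 was not (log2 fold change -1.41, adjusted p = 0.189, edgeR). Oprm1 lost its call without any 1 of the libraries (adjusted p between 0.113 and 0.813) and Hcrtr2 without replicate 1 or replicate 3 (0.052 and 0.672, edgeR).

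Adra1a, the alpha 1A adrenergic receptor, was at 132, 66.6 and 172 CPM in inhibitory nuclei and 39.3, 49.4 and 41.6 CPM in Slc17a6 nuclei (log2 fold change 1.61, SE 0.25, adjusted p = 1.97e-06, edgeR). Htr7, a serotonin receptor, was at 81.0, 95.1 and 114 CPM in inhibitory nuclei and 43.1, 44.3 and 44.2 CPM in Slc17a6 nuclei (1.15, SE 0.26, adjusted p = 0.00222, edgeR). Each was higher in 3 of 3 libraries, and they were the calls among 15 monoamine and acetylcholine receptors, of which Htr2c also passed the p threshold with a rise of 0.90. Against Slc17a6 nuclei of the same cluster, Adra1a and Htr7 were not called (adjusted p = 0.072 and 0.305, edgeR). Both lost their call without replicate 3 (0.563 and 0.672), and Htr7 also without replicate 2 (0.0583, edgeR).

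Adhesion and guidance receptors moved in both directions. Cdh4, a classical cadherin, was at 197, 247 and 460 CPM in inhibitory nuclei and 86.7, 76.8 and 72.7 CPM in Slc17a6 nuclei (log2 fold change 1.93, SE 0.21, adjusted p = 8.23e-11, edgeR). Cdh9, a type II cadherin, was at 263, 143 and 210 CPM in inhibitory nuclei and 77.7, 79.7 and 102 CPM in Slc17a6 nuclei (1.23, SE 0.21, adjusted p = 1.50e-05, edgeR). Cdh11, another type II cadherin, was at 75.9, 57.1 and 58.3 CPM in inhibitory nuclei and 145, 154 and 159 CPM in Slc17a6 nuclei (-1.28, SE 0.25, adjusted p = 2.59e-04, edgeR). The other 11 of the 14 cadherins tested were not called. The 3 calls were lost without replicate 3 (adjusted p = 0.0945 for Cdh4, 0.200 for Cdh9 and 0.372 for Cdh11), and that of Cdh9 without replicate 1 (0.0695, edgeR).

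Among 24 guidance receptors 1 was higher and 3 were lower. Nrp1, a co-receptor for class 3 semaphorins, was at 142, 76.1 and 125 CPM in inhibitory nuclei and 38.7, 57.3 and 48.2 CPM in Slc17a6 nuclei (log2 fold change 1.32, SE 0.25, adjusted p = 1.42e-04, edgeR). Its relative Nrp2 went the other way, at 15.2, 28.5 and 23.3 CPM in inhibitory nuclei and 61.0, 57.9 and 69.1 CPM in Slc17a6 nuclei (-1.58, SE 0.37, adjusted p = 0.00345, edgeR). Both neuropilins kept their direction and their call against Slc17a6 nuclei of the same cluster (adjusted p = 1.83e-05 and 0.0270, edgeR). The ephrin receptors Ephb1 and Epha3 were lower, at means of 128 and 24.8 CPM in inhibitory nuclei and 271 and 61.6 CPM in Slc17a6 nuclei (adjusted p = 3.32e-04 and 0.0425, edgeR), and 1 nucleus held 66.7% of the UMIs of Epha3. All 4 calls were lost without replicate 3 (adjusted p from 0.108 to 0.554), 3 of them without replicate 2 (Nrp2, Ephb1 and Epha3, 0.0517 to 0.397) and 3 without replicate 1 (Nrp1, Nrp2 and Epha3, 0.0648 to 0.683, edgeR).

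Ngfr, the p75 neurotrophin receptor, was at 20.3, 19.0 and 8.74 CPM in inhibitory nuclei and 0.867, 0.0846 and 0.347 CPM in Slc17a6 nuclei, from 9 UMIs in 8 nuclei (log2 fold change 5.09, SE 1.22, adjusted p = 0.00561, edgeR). Alk, a receptor tyrosine kinase, was at 203, 76.1 and 239 CPM in inhibitory nuclei and 475, 295 and 323 CPM in Slc17a6 nuclei (-1.02, SE 0.22, adjusted p = 0.0010, edgeR). Its direction turned within the cluster, where Slc17a6 nuclei averaged 67.9 CPM and the log2 fold change was 1.56 (adjusted p = 0.0011, edgeR). These were the 2 calls among 13 neuregulin, neurotrophin and GDNF receptors. Ngfr passed the filter on low counts only through the inhibitory nuclei, where it is high. The count therefore says nothing of the list beyond these genes. The call of Alk was lost without replicate 3 or replicate 2 (adjusted p = 0.0743 and 0.212, edgeR), its change was under 1 without replicate 1, and Ngfr did not pass the filter when any 1 library or its highest nucleus was left out.

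Temporal code and positional factors differed in few members. Nfib and Nfia, nuclear factor I proteins of late-born neurons, were lower, at means of 53.7 and 65.0 CPM in inhibitory nuclei and 122 and 124 CPM in Slc17a6 nuclei (adjusted p = 1.73e-04 and 0.00348, edgeR), 2 calls among 12 tested, and the groups overlapped for Nfib. Among nuclei of 3000 to 15000 UMIs neither was called, with log2 fold changes of -0.31 for Nfib and -0.84 for Nfia (adjusted p = 0.984 and 0.635, edgeR), and with doublets removed the change of Nfia was -0.93. The list's median was -0.61, or -0.55 with Onecut3, at 0 UMIs in inhibitory nuclei, set at its bound. Zfhx4, a zinc finger homeobox factor, passed the p threshold with a rise of 0.84. Hoxb2, a positional factor of the hindbrain and cord, was at 20.3, 19.0 and 20.4 CPM in inhibitory nuclei and 1.73, 4.14 and 4.98 CPM in Slc17a6 nuclei (log2 fold change 2.42, SE 0.70, adjusted p = 0.0396, edgeR). Its 13 UMIs lay in 13 nuclei, and it was the 1 call among 4 Hox genes tested of 39, of which Hoxd3 was at 10.1, 47.6 and 29.1 CPM in inhibitory nuclei and 7.51, 12.3 and 13.6 CPM in Slc17a6 nuclei (adjusted p = 0.329, edgeR). Hoxb2 passed the filter on low counts only through the inhibitory nuclei, where it is high. Its call therefore says nothing of the other Hox genes. The calls of Nfib, Nfia and Hoxb2 were lost without replicate 3 (adjusted p from 0.548 to 0.689), Hoxb2 also without replicate 1 or replicate 2 (0.571 and 0.244) and Nfia without replicate 2 (0.0594, edgeR).

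Tnr, tenascin R of the perineuronal net, was at 263, 238 and 131 CPM in inhibitory nuclei and 401, 462 and 396 CPM in Slc17a6 nuclei (log2 fold change -1.09, SE 0.21, adjusted p = 1.42e-04, edgeR). Ptprz1, a receptor phosphatase bound by that net, averaged 49.1 CPM in inhibitory nuclei and 84.1 CPM in Slc17a6 nuclei (adjusted p = 0.0200, edgeR), and the groups overlapped. They were 2 of 6 perineuronal net genes tested. The adjusted p of Tnr was 0.439 without replicate 3 and 0.0531 without replicate 2, and that of Ptprz1 was 0.855 without replicate 3 and 0.210 without replicate 1 (edgeR). None of 5 calcium-binding proteins (1 higher and 3 lower unadjusted) and none of 4 transmitter genes for glutamate, acetylcholine and monoamines outside the rule (0 higher and 2 lower unadjusted) was called.

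**Figure D4:**
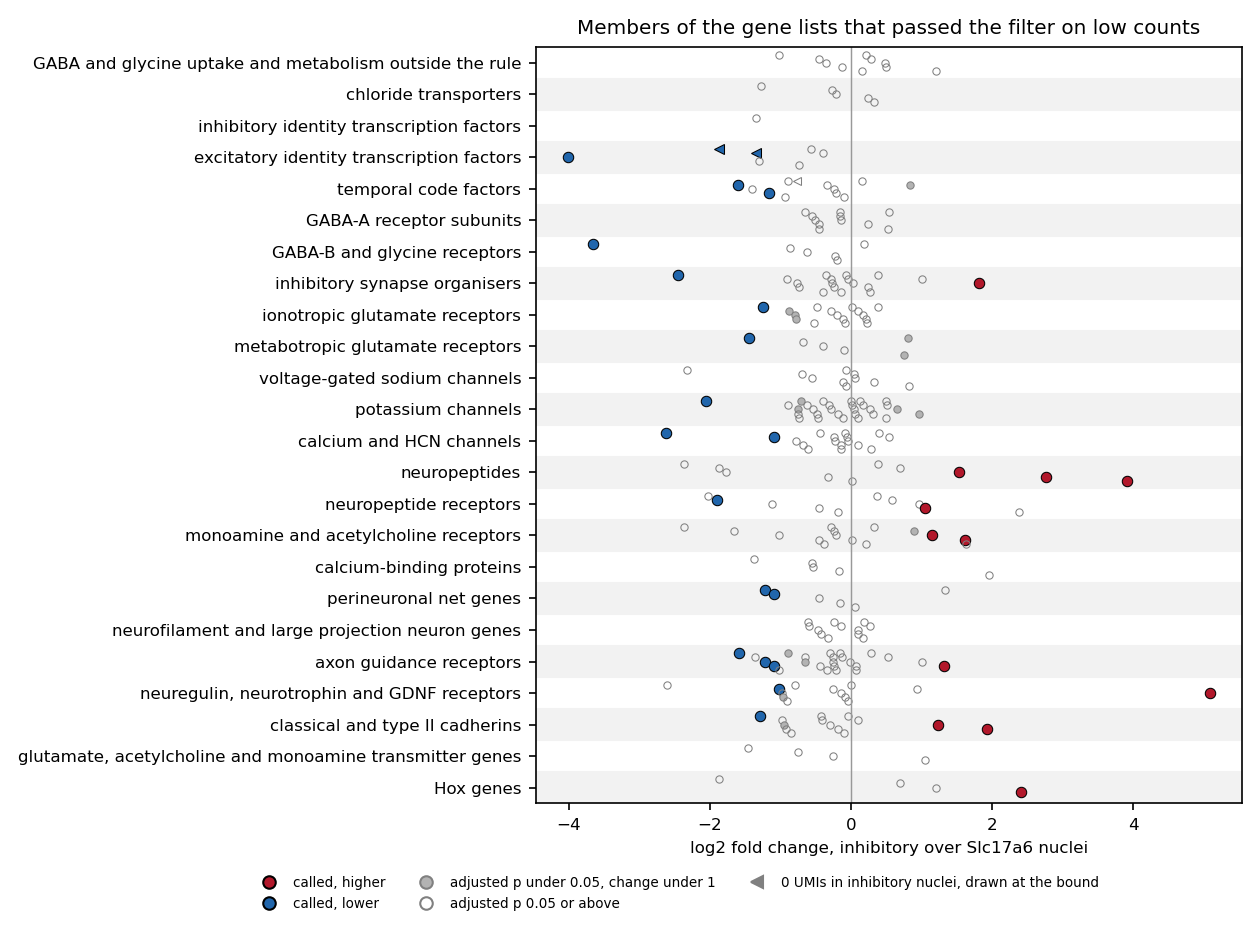
Log2 fold change, inhibitory over Slc17a6 nuclei, of each tested member of the 24 gene lists; red and blue points are called higher and lower, grey points passed the p threshold with a change under 1, open points did not pass, and triangles are genes at 0 UMIs in inhibitory nuclei drawn at their bound. Lhx4 stands farthest left and Ngfr, at 5.09, farthest right.

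Several of these calls did not stand under other choices of nuclei or test. Among nuclei of 3000 to 15000 UMIs, Vwa5b1, Sox1ot, Tex22, Col16a1, Adamts18, Lhx3, Lhx4, Nfia, Nfib, Mdga1, Pex5l, Oprm1, Ptprz1, Nrp2, Epha3 and Cdh11 were not called (adjusted p from 0.0601 to 0.988, edgeR), and Col4a5, Hoxb2, Irx2, Myo3a, Ngfr, Penk, Plekhg1, Rreb1 and Zbtb7c did not pass the filter. With at least 6 UMIs of the inhibitory genes, the calls of Sox1ot, Tex22, Irx2, Plekhg1, Oprm1, Ptprz1 and Epha3 were lost (0.0703 to 0.866, edgeR). With at least 4 UMIs of Slc17a6 in the comparison nuclei, those of Nfib, Mdga1, Oprm1 and Epha3 were lost (0.0521 to 0.241, edgeR), and Pex5l, Htr7 and Alk changed by less than 1. The Wald test of DESeq2 did not call Col16a1, Rreb1, Lhx4, Lhx3, Adamts18, Glra2, Nfia, Mdga1, Oprm1, Hcrtr2, Htr7, Ptprz1, Nrp2 and Epha3 (adjusted p from 0.0733 to 0.694).

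The inhibitory nuclei were also described by whether they held a UMI of Slc6a5, a gene of the rule. Replicate 2 held 2 and 5 nuclei of these kinds, under the planned minimum of 10, and no test was run. Values are CPM over the 27 nuclei with Slc6a5 (329976 UMIs) and the 23 without (316092 UMIs), with 95% Poisson intervals that cover counting error only and ignore the spread between nuclei. The genes named here were chosen after their values were seen. Of 223 genes compared in this way, 69 had intervals that did not overlap, so separate intervals were common. Cpa6 had 1 UMI in the nuclei with Slc6a5 (3.03 CPM, interval 0.0767 to 16.9) and 346 UMIs in 13 of the nuclei without it (1095 CPM, 982 to 1216). Its values were 0, 0 and 6.26 CPM by replicate with Slc6a5, against 702, 598 and 1416 CPM without, and 5 of the 9 nuclei with 10 or more UMIs of Cpa6 carried Gata3.

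Nxph1 showed the reverse, at 2090, 1047 and 2035 CPM by replicate in nuclei with Slc6a5 and 504, 164 and 289 CPM in those without. Unc5d, a netrin receptor, stood at 1469, 680.5 and 889 CPM with Slc6a5 and 214, 14.9 and 131 CPM without. Chrm2, a muscarinic receptor, stood at 512 CPM (438 to 596) with Slc6a5 and 91.8 CPM (61.4 to 132) without. For these 3 genes the level with Slc6a5 was higher in all 3 libraries.

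Gata3 was at 109 CPM (76.4 to 151) with Slc6a5 and 38.0 CPM (19.6 to 66.3) without, and Hoxd3 at 42.4 CPM (23.2 to 71.2) and 9.49 CPM (1.96 to 27.7), intervals that overlap. Gfra1, a receptor of the GDNF family, was at 90.9 CPM (61.3 to 130) with Slc6a5 and 9.49 CPM (1.96 to 27.7) without. On the other side, Zfhx3, a zinc finger homeobox factor, was at 364 CPM (301.5 to 435) with Slc6a5 and 1003 CPM (896 to 1120) without. Kcnq5, a potassium channel subunit, was at 885 CPM (786 to 993) with Slc6a5 and 2926 CPM (2741 to 3121) without. Median depth was 11894 and 12035 UMIs in nuclei with and without Slc6a5.

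**Figure D5:**
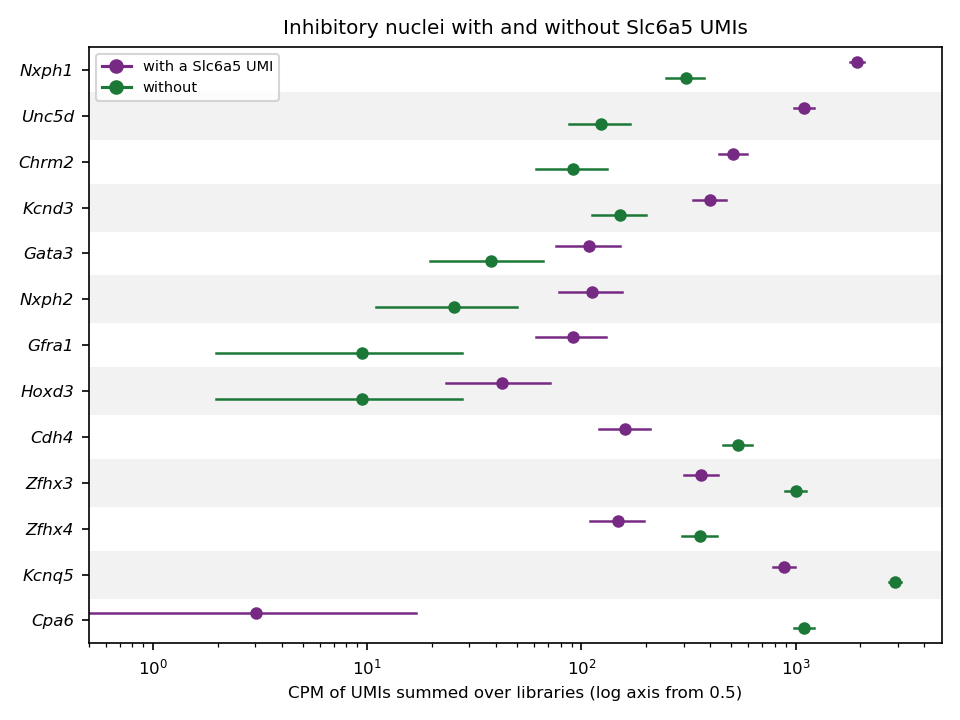
CPM of UMIs summed over libraries, on a log axis, in the 27 inhibitory nuclei with Slc6a5 (purple, upper of each pair) and the 23 without (green), with 95% Poisson intervals for counting error; that of Cpa6 with Slc6a5 runs past the left end of the axis. Nxph1 and Unc5d stand highest with Slc6a5, while Cpa6 is at 3.03 CPM with it and 1095 CPM without.

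The inhibitory nuclei had few or no transcripts of several other cell types. Summed over 4 striatal, 4 astrocyte, 2 oligodendrocyte precursor and 2 red nucleus markers, the inhibitory nuclei had 0 UMIs. Of 9 forebrain interneuron markers 5 were detected (Dlx6os1, Adarb2, Sst, Vip and Pvalb), together at 105 to 207 CPM by library against 264 to 407 CPM in Slc17a6 nuclei. The other 4, Dlx1, Dlx2, Dlx5 and Lhx6, were at 0 UMIs. All 4 microglial markers were detected, at 57.1 to 184 CPM in inhibitory nuclei and 94.2 to 133 CPM in Slc17a6 nuclei. Of 3 hypothalamic markers 1 was detected, the peptide gene Hcrt, at 60.7, 266 and 23.3 CPM in inhibitory nuclei and 107, 117 and 37.6 CPM in Slc17a6 nuclei, with Sim1 and Otp at 0 UMIs. Of 6 corticospinal markers 5 were detected, at 93.2 to 342.5 CPM in inhibitory nuclei and 210 to 460 CPM in Slc17a6 nuclei, highest in replicate 2 in both. Serotonergic markers came from replicate 3, at 34.95 CPM in inhibitory nuclei and 2.55 CPM in Slc17a6 nuclei of that library: 10 UMIs of Tph2, the serotonin synthesis enzyme, lay in 1 nucleus, which was also the deepest, with 36921 UMIs. That nucleus had 7 UMIs of Gad2 and 63 of Cpa6 and held the 16.7% of the Nrxn3 UMIs. The part of these markers and of the depth of single nuclei in the differences was not tested, apart from the values given without the highest nucleus.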

How the data were processed

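The deposited matrices hold raw UMI counts per gene and barcode in each of 3 libraries, from Cell Ranger (6.1.1 per the file headers, 7.0.1 with mm10 per the submitters' processing notes; which version made the counts was not settled). Barcodes were kept at 1000 genes and 5% mitochondrial UMIs. No ambient RNA was subtracted. Nuclei were clustered with scanpy 1.11.5 (2000 variable genes without the 7 rule genes, 30 components, 20 neighbours, Leiden resolution 1), and doublets were marked by Scrublet at an expected 6% and kept. UMIs were summed per library and group and tested with edgeR 4.0.16 (TMM, filterByExpr, glmQLFit, library as a block), with Benjamini-Hochberg adjustment over all genes. The 7 rule genes were left out. At least 20 nuclei per library had been planned; libraries held 19, 7 and 24, and the fit was made all the same. P-values rest on the spread between these libraries, which may be technical, and the spread of each gene was estimated partly from all genes.

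The members, lists and tests were chosen with earlier results of these data known. From genes called in the same direction in 3 of 3 libraries, at 20 CPM or more in the higher group, the 14 largest rises and 8 largest falls were named, with up to 4 called members of each of 24 lists; others were named after their values were seen. Both sums of a library come from the same nuclei preparation: their deviations from the group means correlated at 0.422, 0.415 and 0.274 over 1679 genes of at least 100 CPM, and between libraries at -0.337 to -0.038. Genes at 0 UMIs were bounded by 3 counts over the group. Alternatives covered filters, scaling, DESeq2 1.42.0, depth and left-out libraries. Gene positions are from RefSeq on GRCm38.p6, the mm10 build. A few listed genes are not reported here.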

Additional observations from a re-analysis of the deposited data

Results flagged for a closer look

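A signal lay in barcodes that no comparison used. Besides the 50 inhibitory nuclei, 25 barcodes met the thresholds for inhibitory transcripts but also held UMIs of Slc17a6 or Slc17a7, 2, 9 and 14 of them in replicates 1, 2 and 3. Of these, 12 carried Slc17a6 and 16 Slc17a7, with 1 to 11 UMIs of the pair and exactly 1 UMI in 15. Their median depth was 18503 UMIs, against 11964.5 UMIs in inhibitory nuclei, and Scrublet marked 0 of them as doublets. They were spread over 9 clusters, with 13 in the cluster that held most inhibitory nuclei. Gata3 was found in 6 of the 25.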

How the results depend on the processing

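Against the main counts of 97 genes higher and 127 lower, nuclei of 3000 to 15000 UMIs gave 64 and 66, the Wald test of DESeq2 56 and 55, and leaving out 1 library 14 to 61 and 12 to 118, the lowest without replicate 3. With no replicate block, so that the library pairing was not used, 56 genes were higher and 68 lower, and 36 of 51 genes of the naming rule kept their call; Sox1ot, Myo3a, Irx2, Plekhg1, Adamts18, Nfia, Nfib, Mdga1, Pex5l, Oprm1, Ptprz1, Epha3, Alk and Hoxb2 did not (adjusted p from 0.0535 to 0.286, edgeR). Within 1 cluster, a comparison added after seeing the data, 80 were higher and 84 lower; of 33 named genes tested there 26 kept their call, 6 lost it and 1, Alk, reversed to 1.56 (adjusted p = 0.0011, edgeR; 2.83e-05 to 0.352 over its alternatives), the cause of which was not tested. All 26 genes called without replicate 3 were called in the full fit. The share of inhibitory nuclei was 0.334 to 0.692% over its alternatives, within 1 SD. The comparison by Slc6a5 and its alternatives were not run, since replicate 2 held 2 and 5 nuclei, under the planned 10. The 105124 UMIs of replicate 2 limit genes at 0 there to under 28.5 CPM.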
